A study of Bos taurus with 3 samples.

Results

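The cells described here are the 303 stromal cells of a bovine peripheral blood culture in which somatostatin (SST), SFRP4, asporin (ASPN) and interleukin 6 (IL6) were together highest. They were taken from 3033 low-macrophage cells of the peripheral blood library, which is to say barcodes with at least 7489 unique molecular identifiers (UMIs, each a counted RNA molecule) and under 0.02% of them from the macrophage genes TYROBP, FCER1G and AIF1. Each cell was scored by its mean log1p(UMIs per 10000) over the 4 genes, and the top 10% became the members. The other 2730 blood stromal cells are what they are compared with, and all 3 libraries together held 18561 cells.

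The study grew mesenchymal stromal cells (MSCs), plastic-adherent and spindle-shaped cells studied for veterinary therapy, out of peripheral blood, bone marrow and adipose tissue, each taken from a single healthy Holstein-Friesian cow in its opening lactation. All 3 cultures were wild type and untreated, were fed DMEM of low glucose content (30% fetal bovine serum, penicillin/streptomycin, L-glutamine) and were harvested when colonies had appeared. Single-cell libraries were made with the 10x Genomics 3' chemistry, 1 per tissue, from cultures and not from fresh tissue. Members and other cells therefore share a cow, a culture and a library, and the cells are not replicates. Every comparison below is a description without a test, and its intervals are 95% intervals that cover counting error only.

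The 4 genes encode secreted proteins of different kinds. SST is a peptide hormone of neurons and of gut and pancreatic endocrine cells, where it is cut from a precursor and lowers the release of other hormones. SFRP4 is a soluble antagonist of Wnt ligands, ASPN is a small leucine-rich proteoglycan of collagenous matrix that binds TGF-beta, and IL6 is a cytokine that fibroblasts make in inflammation together with chemokines.

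The values of these 4 genes chose the members, so they are given only to show what was chosen. SST stood at 1431 CPM (counts per 1000000 UMIs of the group) in the members, against 54.0 CPM in the other blood stromal cells, a ratio of 26.5 (25.6 to 27.5). IL6 stood at 396 CPM in the members and 36.9 CPM in the others, a ratio of 10.7. ASPN had 94.4 CPM in the members and 27.3 CPM in the others (ratio 3.45), and SFRP4 had 1248 CPM in the members and 402 CPM in the others (ratio 3.11). SST and IL6 were thus the genes by which the members lay farthest from the rest, while SFRP4 was widespread in both groups. The score of the last cell inside the limit was 1.180 and that of the first cell outside was 1.177, so the boundary runs through a continuous range.

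Within the members the 4 genes were not uniformly present. An SFRP4 UMI was found in 303 of 303 members, an SST UMI in 257, an IL6 UMI in 212 and an ASPN UMI in 134. Per 10000 UMIs of a cell, SST ranged over members between 0 and 129 with a median of 9.16, and SFRP4 between 0.525 and 73.1 with a median of 10.9. The median was 0.998 for IL6, whose highest cell had 95.8, and 0 for ASPN, whose highest cell had 16.6. All 4 genes were seen together in 77 members, 3 of them in 146 and 2 in 80. The commonest combination, SST with SFRP4 and IL6 but no ASPN, was held by 90 members, and SST with SFRP4 alone by 59. Another 25 members had SFRP4, ASPN and IL6 without an SST UMI, and 20 had SFRP4 and IL6 only. Of the other blood stromal cells 72, or 2.64%, also held all 4 genes. The label, which names SST, SFRP4 and ASPN, thus holds for the summed level, but most members had no ASPN UMI.

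**Figure D1:**
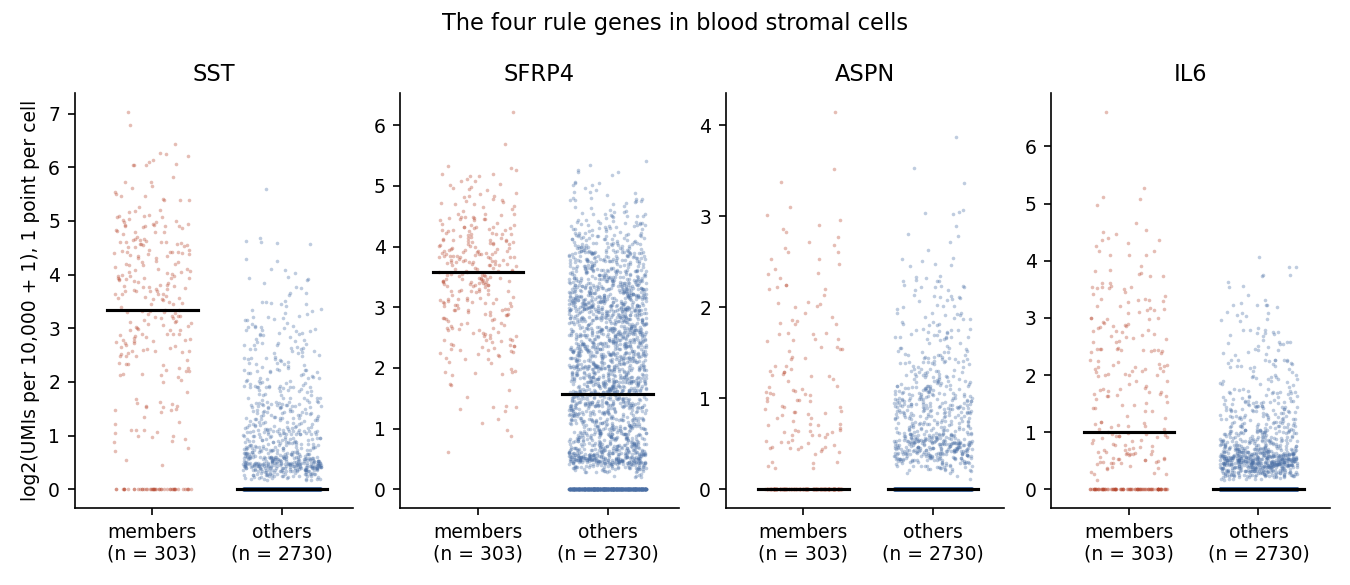
Level of SST, SFRP4, ASPN and IL6 in each blood stromal cell, as log2(UMIs per 10000 + 1), for the 303 members and the 2730 others; each point is a cell and the bars are medians. The members' medians are 9.16 UMIs per 10000 for SST and 10.9 for SFRP4, whereas the ASPN median is 0 in both groups.

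Depth differed little between the groups: the median cell had 23742 UMIs among the members and 25016 among the others, with 4499 and 4657 genes detected and 2.51% and 2.47% mitochondrial UMIs. After every cell was thinned to 7000 UMIs, SST was seen in 81.5% of members (76.7 to 85.7%) and 12.5% of the others (11.2 to 13.8%). SFRP4 was then seen in 98.3% of members and 60.7% of the others, IL6 in 54.5% of members and 13.6% of the others, and ASPN in 26.4% of members and 10.99% of the others. In 71 macrophage-rich blood cells, the thinned shares were 1.41% for SST, 11.3% for SFRP4 and 1.41% for IL6. ASPN was seen in 0 of 71 cells, which allows a share of up to 5.06% by the exact interval. Those macrophage-rich cells had a median of 9802 UMIs before thinning. In free RNA, read from barcodes with 10 to 100 UMIs, SST stood at 127 CPM, IL6 at 49.7 CPM, ASPN at 28.2 CPM and SFRP4 at 286 CPM. The free RNA levels of SST, IL6 and ASPN are above the levels of the other blood stromal cells, and all 4 are below those of the members.

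To see how far the genes go together, each was left out of the score in turn and read in the cells that the other 3 genes chose. Left out, SST still had 580 CPM in the 303 cells chosen by SFRP4, ASPN and IL6, against 142 CPM in the rest, a ratio of 4.08 (3.94 to 4.22). IL6 had 174 CPM in the cells chosen without it and 59.7 CPM in the rest (2.92), SFRP4 had 938 CPM and 435 CPM (2.16), and ASPN had 53.1 CPM and 31.7 CPM (1.68, with an interval of 1.51 to 1.86). All 4 genes thus had a higher summed level where the other 3 were high, SST by the widest margin and ASPN by the narrowest. From cell to cell the link was weak: over the 3033 cells, rho between pairs lay between 0.06 (SST with ASPN) and 0.25 (SST with SFRP4). After thinning, ASPN was seen in 16.5% of the cells chosen without it (12.5 to 21.2%) and 12.1% of the rest (10.9 to 13.4%), with overlapping intervals. The score without SST shared 163 cells with the members, so the members are to a large part the SST-high cells, while the scores without SFRP4, ASPN or IL6 shared 248, 268 and 243.

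Outside the 4 genes, the members were marked by neutrophil- and monocyte-attracting chemokines, by CA4, THBS2, ECM1, EPDR1 and SERPINE2, and by lower levels of ANKRD1, NES, FST and LIPG. A gene was called higher or lower where the CPM ratio was at least 2 in either direction and the higher side had at least 50 CPM. Of 2975 genes that reached this level, 15 were higher in the members, or 0.504%, and 4 were lower, or 0.134%. Without the 4 genes that chose the cells, 11 of 2971 genes, or 0.37%, were higher.

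The CXC chemokines bind receptors that draw neutrophils to a site of inflammation, and CCL2 draws monocytes. CXCL2 had 234 CPM in the members, against 53.6 CPM in the other blood stromal cells, a ratio of 4.38 (4.14 to 4.62). CXCL8 had 127 CPM in the members and 40.9 CPM in the others (3.09), and CCL2 had 390 CPM in the members and 148 CPM in the others (2.63). CXCL5, among the most abundant transcripts of this class, had 3544 CPM in the members and 1554 CPM in the others (2.28, interval 2.25 to 2.31). GRO1, the bovine name of CXCL1, had 244 CPM in the members and 115 CPM in the others (2.12). CXCL5 UMIs were in 303 of 303 members, but those of CXCL2 were in 121, so the rise of CXCL2 belonged to a minority of the members. The member with the most CXCL2 held 19.4% of the members' UMIs of that gene, and without this cell the ratio was 3.55. Leaving out the cell with the most GRO1 UMIs takes its ratio to 1.98, under the 2-fold limit. CXCL8 and GRO1 were also plentiful in free RNA, at 178 CPM and 240 CPM, CXCL8 above its level in either group. The CXC genes are near-identical in part and lie close together in the RefSeq table (2 coding genes between CXCL2 and CXCL5, 1 between CXCL8 and CXCL5), and the counting rule for shared reads was not given, so the split between them is uncertain.

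The chemokine list also holds the growth factor CSF1 and does not hold GRO1. Of 6 genes on this list that reached 50 CPM, 4 were higher, namely CXCL2, CXCL5, CXCL8 and CCL2, and 0 were lower. CXCL12, a stromal chemokine that holds blood-forming cells in marrow, had 182 CPM in the members and 163 CPM in the others (1.12). CSF1, the growth factor of macrophages, had 279 CPM in the members and 319 CPM in the others (0.875). The list's median log2 ratio was 1.19, and the median over all 8387 measured genes was -0.05. CXCL9, CXCL10 and CX3CL1, chemokines induced by interferon or shed from endothelium, had 0 UMIs in all blood stromal cells.

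Among 14 measured genes of the NF-kB and inflammatory list, 14 had a log2 ratio above 0, with a median of 0.45, where 3389 of 8387 measured genes were above 0. A lower limit of 1.5-fold was applied to such modest differences; 62 of 2975 genes, or 2.08%, passed it upward and 14, or 0.471%, downward. NFKBIA, the feedback inhibitor of NF-kB, passed it with 108 CPM in the members and 68.0 CPM in the others (1.59). PTGS2, the inducible cyclooxygenase, had 10.7 CPM in the members and 3.08 CPM in the others (3.48), and the transcription factor IRF1 had 47.5 CPM and 23.7 CPM in the same order; both lie under the 50 CPM limit and were not called. Of the class I presentation genes 7 of 7 measured had a ratio above 1; B2M, the light chain of class I molecules, had 2348 CPM in the members and 1613 CPM in the others (1.46), and only PSMB8, an immunoproteasome subunit, passed 1.5-fold (1.51). The complement genes were scarce, with 4 of 4 measured above 0 and a median log2 ratio of 0.94. Complement factor B, CFB, had 9.72 CPM in the members and 2.51 CPM in the others (3.87).

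Genes that act with IL6 were measured next. CLCF1, a cytokine of the IL6 family, had 14.0 CPM in the members and 10.6 CPM in the others (1.32). IL6ST, the shared signalling chain gp130, had 60.2 CPM in the members and 42.7 CPM in the others (1.41), and STAT3 had 53.6 CPM and 41.4 CPM (1.30). None of the 3 genes of this list that reached 50 CPM without IL6 passed 1.5-fold in either direction.

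**Figure D2:**
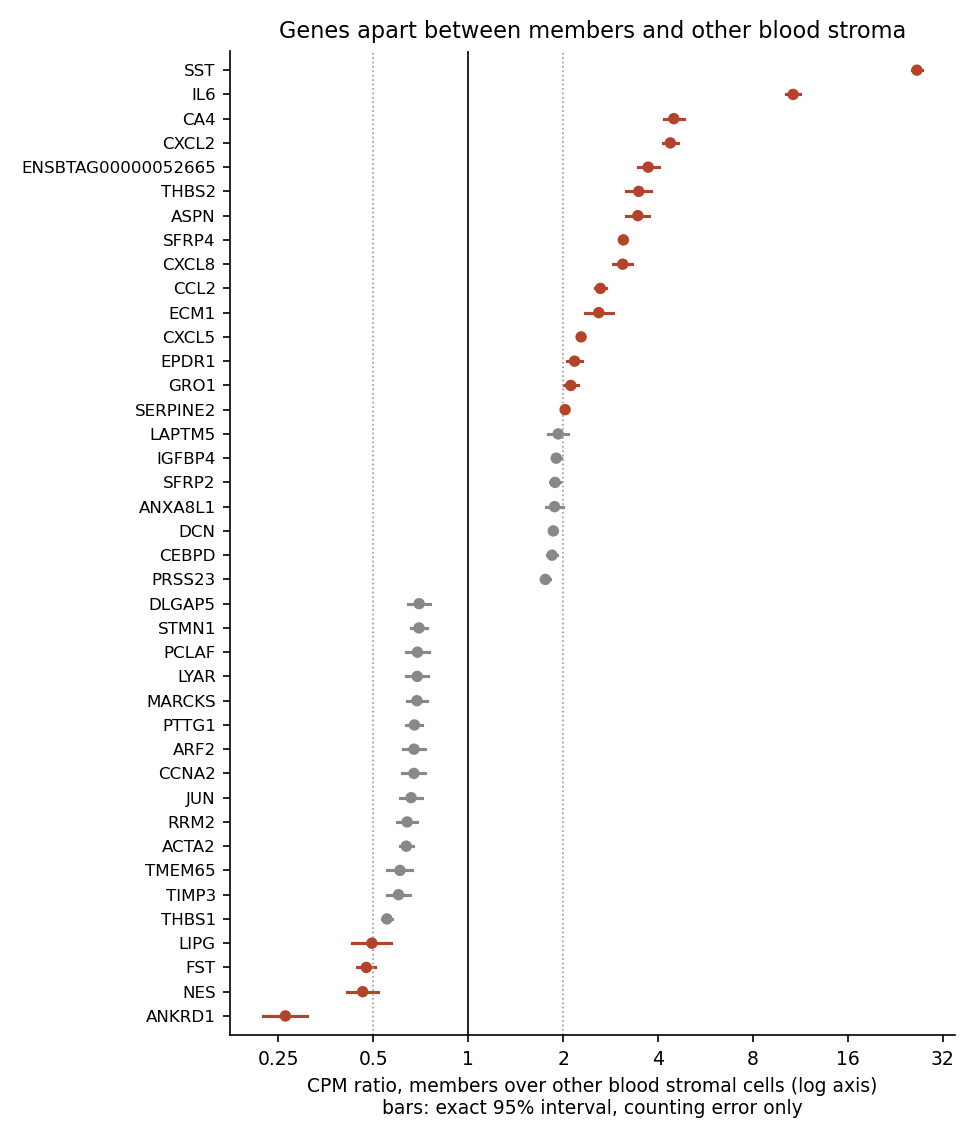
CPM ratio of members over other blood stromal cells on a log axis, for the genes named by rule and all genes called at 2-fold, with exact 95% counting intervals. Red genes are at least 2-fold apart (dotted lines), reaching from SST at 26.5 to ANKRD1 at 0.263, and grey genes are not.

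The other 6 genes called higher were CA4, ENSBTAG00000052665, THBS2, ECM1, EPDR1 and SERPINE2. CA4, a membrane-anchored carbonic anhydrase, had the largest ratio outside the rule among genes of at least 50 CPM, with 136 CPM in the members and 30.4 CPM in the others (4.49, interval 4.17 to 4.83). It was seen in 170 of 303 members and 896 of 2730 others. THBS2, thrombospondin 2, a matricellular protein that restrains vessel growth, had 78.5 CPM in the members and 22.6 CPM in the others (3.47). ECM1, an extracellular matrix protein of skin and basement membrane, had 59.1 CPM in the members and 22.8 CPM in the others (2.59). SERPINE2, a protease nexin that inhibits thrombin and plasminogen activators, had 1013 CPM in the members and 499 CPM in the others (2.03). EPDR1, an ependymin-related lysosomal and secreted protein, had 193 CPM in the members and 88.6 CPM in the others (2.18). A gene known only as ENSBTAG00000052665 had 114 CPM in the members and 30.6 CPM in the others (3.72).

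SFRP4 and EPDR1 are adjacent in the RefSeq gene order, with 0 coding genes between them, and ASPN has ECM2 and OMD as its neighbours and OGN next to those. Of these neighbours of ASPN, ECM2 had 47.0 CPM in the members and 26.3 CPM in the others (1.79). OMD, osteomodulin, had 18.9 CPM in the members and 13.1 CPM in the others (1.45), and OGN, osteoglycin, had 123 CPM and 85.6 CPM in the same order (1.43). ECM2 and OMD lay under 50 CPM and could not be called, and OGN was not called. The ratio of EPDR1, called at 2.18, was 1.75 with SFRP4 left out of the score.

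The other small leucine-rich proteoglycans, which space collagen fibrils, were modestly higher or level. Decorin, DCN, had 968 CPM in the members and 520 CPM in the others (1.86), the only other gene of the list to pass 1.5-fold at 50 CPM or more. FMOD, fibromodulin, had 468 CPM in the members and 316 CPM in the others (1.48), and LUM, lumican, had 492 CPM and 353 CPM (1.39). BGN, biglycan, had 502 CPM in the members and 538 CPM in the others (0.933), and KERA, keratocan, had 0 UMIs. Of 9 measured genes of the list besides ASPN, 7 had a ratio above 1, and the median log2 ratio was 0.52. Over all measured genes 3389 of 8387 had a ratio above 1.

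Of 16 measured collagens, 11 had a ratio above 1, where 3389 of 8387 measured genes did. The median log2 ratio of the collagens was 0.35, and 2 of them passed 1.5-fold upward. These were COL3A1, the reticular fibre collagen, at 1909 CPM in the members and 1115 CPM in the others (1.71), and COL8A1, a network-forming collagen, at 88.3 CPM and 47.2 CPM (1.87). COL1A1, the main fibril collagen, had 7480.2 CPM in the members and 5819 CPM in the others (1.29). COL11A1, a fibril collagen of cartilage, had 9.85 CPM in the members and 32.6 CPM in the others (0.302), under the 50 CPM limit. The 2 thrombospondins moved apart: THBS2 was higher, whereas THBS1, which activates latent TGF-beta, had 332 CPM in the members and 600 CPM in the others (0.553), passing 1.5-fold only. TIMP3, a matrix-bound inhibitor of metalloproteinases, had 72.4 CPM in the members and 120 CPM in the others (0.601).

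In the Wnt lists, SFRP2 was the only gene besides SFRP4 to pass 1.5-fold. A secreted antagonist like SFRP4, it had 404 CPM in the members and 214 CPM in the others (1.89). Of the Wnt receptors, 0 of 2 tested passed 1.5-fold, with a median log2 ratio of 0.18 over 10 measured genes, and of the Wnt target and feedback genes 0 of 2 tested did, with a median of 0.08 over 3. MYC, a target, had 54.0 CPM in the members and 55.7 CPM in the others (0.97), and CCND1, cyclin D1, had 268 CPM and 249 CPM (1.07).

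Of 18 neuroendocrine and peptide processing genes found, 5 had 0 UMIs and 4 were measured, with a median log2 ratio of -0.11. Only 1 reached 50 CPM, and 0 were called. The prohormone convertases PCSK1 and PCSK2 had 0 UMIs in members and others alike, as had the endocrine regulators NEUROD1 and PDX1 and the neuropeptide NPY. PAM, the amidating enzyme, had 52.6 CPM in the members and 53.3 CPM in the others (0.986). ISL1, a transcription factor of endocrine and neural cells, had 14.3 CPM in the members and 11.1 CPM in the others (1.30), and PAX6 had 17.8 CPM and 22.9 CPM (0.778). Of the somatostatin receptors, SSTR1, SSTR2, SSTR3 and SSTR5 had 0 UMIs in all blood stromal cells. For the members, 0 of 8021756 UMIs allows up to 0.374 CPM. The 7 measured genes linked to cAMP, the second messenger that induces SST in endocrine cells, had a median log2 ratio of -0.05.

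Genes lower in the members were few. ANKRD1, an ankyrin repeat protein induced by YAP in spread cells, had 20.4 CPM in the members and 77.6 CPM in the others (0.263, interval 0.224 to 0.308). Its UMIs lay in 22 of 303 members and 562 of 2730 others, and 47.0% of the members' UMIs came from a single cell, without which the ratio was 0.14. NES, nestin, an intermediate filament protein of immature cells, had 40.6 CPM in the members and 87.8 CPM in the others (0.463). FST, follistatin, which binds activin, had 114 CPM in the members and 240 CPM in the others (0.475), and LIPG, a secreted phospholipase, had 25.1 CPM and 50.6 CPM (0.495, interval 0.428 to 0.571). ACTA2, smooth muscle actin, had 225 CPM in the members and 353 CPM in the others (0.637), passing 1.5-fold, while TAGLN had 85.3 CPM and 93.3 CPM (0.914). Of the 9 measured genes of the YAP list, ANKRD1 among them, 4 had a ratio above 1, a share close to that of all measured genes.

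Cell-cycle genes were lower as a group but little by gene. Summed over the S, G2 and M lists, they made up a median of 0.349% of a member's UMIs and 0.676% of another cell's. In pooled UMIs the gap was smaller, with ratios of 0.770 for the S list and 0.784 for the G2 and M list. The lower median does not hold for all members: the cell-cycle cluster described below held 25.4% of them and 18.0% of all blood stromal cells. Cells above the median of all blood stroma numbered 96 of 303 members (31.7%, 26.5 to 37.2%) and 1420 of 2730 others (52.0%, 50.1 to 53.9%). Of the S phase genes 0 of 28 measured, and of the G2 and M genes 0 of 40, had a ratio above 1, where 3389 of 8387 measured genes did. The median log2 ratios of these 2 lists were -0.34 and -0.41, against -0.05 over all measured genes. Only RRM2, the regulated subunit of ribonucleotide reductase, passed 1.5-fold, at 103 CPM in the members and 161 CPM in the others (0.641). Cells at or below the median of this share were ranked anew by the score. The 152 highest, all of them members, were set against the other 1365. Those 1365 include the lower-scoring members of this range, as only 96 of 303 members lay above the median. The ratios are therefore not those of all low-cycling members over non-members. In this comparison THBS2 (3.20), CA4 (3.32) and CXCL2 (2.73) were again over 2-fold apart, while GRO1 (1.75), EPDR1 (1.85) and SERPINE2 (1.98) were not. SST (18.7) was apart by construction, as the score holds it.

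The identity of the members as stroma was checked against marker lists. Of 14 measured stromal markers, 12 had a ratio above 1, where 3389 of 8387 measured genes did. The summed level of the stromal markers was 42298 CPM in the members and 35154 CPM in the others. NT5E (CD73) had 201 CPM in the members and 144 CPM in the others (1.40), while ENG (1.01), CD44 (1.02) and ITGB1 (0.968) were level. THY1, a usual MSC marker, was near the floor in both, with 2.62 CPM in the members and 4.49 CPM in the others, and PTPRC (CD45) had 0 UMIs in the members. Endothelial markers summed to 4.86 CPM in the members and 4.71 CPM in the others, lymphocyte markers to 1.12 and 1.60 CPM, epithelial markers to 0.125 and 0.195 CPM, and Schwann and glial markers to 8.60 and 10.0 CPM.

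Markers of myeloid cells were the exception, at low levels. The monocyte and macrophage list summed to 122 CPM in the members and 66.0 CPM in the others, of which LAPTM5, a lysosomal membrane protein best known from blood cells, gave 107 CPM and 55.7 CPM (1.93). CD14 had 6.48 CPM in the members and 3.11 CPM in the others, both under its 34.2 CPM in free RNA, and its ratio of 2.09 turned to 0.88 with the macrophage limit at 0.1%. The neutrophil list summed to 25.3 CPM in the members and 10.3 CPM in the others. In it the calgranulin S100A8 had 6.86 CPM in the members and 0.741 CPM in the others, with UMIs in 18 of 303 members and 36 of 2730 others. CSF3R, CXCR2 and LTF, defining genes of neutrophils, had 0 UMIs in both. The part of the myeloid genes in the chemokine differences was not tested. Tightening the macrophage limit to 0.01% changed few cells: 302 of its 303 members were the same, and 2723 other cells remained. The ratios of CXCL2 (4.28), CCL2 (2.62) and LAPTM5 (1.91) could therefore hardly change, so they say little about the myeloid genes. With the limit at 0.1%, CXCL8 had a ratio of 2.16.

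The score is a continuum, and the blood stromal cells were divided into deciles of it to see which genes step up at the members. SST had 0 CPM in decile 1 by construction, 75.4 CPM in decile 8, 286 CPM in decile 9 and 1431 CPM in decile 10, the members. IL6 went through 56.9, 149 and 396 CPM over the same 3 deciles. Both genes are in the score, so their rise along it is favoured by construction, as is that of SFRP4, which had 927, 1001 and 1248 CPM. Outside the rule, CA4 had 44.7, 73.0 and 136 CPM over deciles 8, 9 and 10, CXCL2 had 95.6, 139 and 234 CPM, and CCL2 had 194, 238 and 390 CPM, so each had its largest step in CPM at the members. DCN, by contrast, was higher in each decile than in the one before, with 243 CPM in decile 1, 876 CPM in decile 9 and 968 CPM in decile 10. EPDR1 had 14.3, 180 and 193 CPM in those 3 deciles, and LAPTM5 had 10.5, 98.1 and 107 CPM. For DCN, EPDR1 and LAPTM5 the members were the end of a gradient and close to decile 9. SERPINE2, with 165, 825 and 1013 CPM, also increased in each decile but had its largest step in CPM at the members.

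Genes lower in the members did not all decline along the score. NES had 112 CPM in decile 1, 54.5 CPM in decile 9 and 40.6 CPM in the members, and LIPG had 68.5, 30.1 and 25.1 CPM. FST instead had 229 CPM in decile 1, 487 CPM in decile 2 and 114 CPM in the members, and ANKRD1 had 65.4 CPM, 159 CPM and 20.4 CPM in those 3 deciles. ACTA2 was highest in the middle, with 223 CPM in decile 1, 470 CPM in decile 5 and 225 CPM in the members. For ACTA2 the members therefore resembled the cells with the least of the 4 genes, and the ratio of 0.637 comes from the deciles between.

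**Figure D3:**
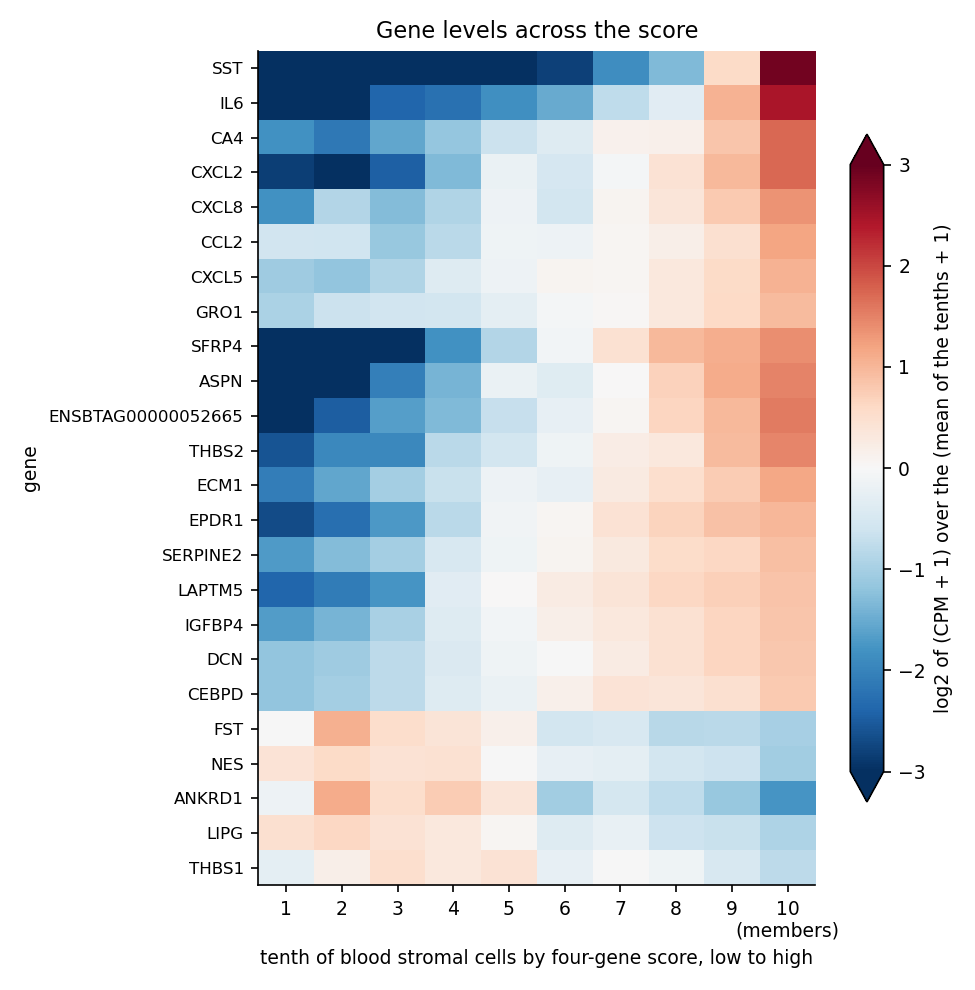
Level of 24 genes across the 10 deciles of blood stromal cells by the 4-gene score, as log2 of (CPM + 1) over the mean of the deciles, with colours ending at -3 and 3. SST, IL6, CA4 and CXCL2 are reddest in decile 10, the members, and paler in decile 9, whereas DCN, EPDR1 and LAPTM5 increase gradually and are nearly as high in decile 9 as in decile 10.

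Clustering the blood stromal cells without the 4 genes gave 6 clusters, and 3 of them held all the members. Cluster 2, led by EPAS1, CXCL8, SERPINF1, CXCL2 and CCN2, held 185 members, 61.1% of them, which were 21.6% of its 857 cells. Cluster 5, led by the cell-cycle genes TOP2A, CDKN2D, UBE2C, NUSAP1 and CDK1, held 77, or 14.1% of its 547 cells. Cluster 1, led by CXCL2, GRO1 and CCL2, held 41, or 10.3% of its 399 cells. Cluster 0, led by ANKRD1 and FST, cluster 3, led by MEOX1 and ALDH1A1, and cluster 4, led by LRRN4CL and TIMP3, held 0 members among 383, 489 and 358 cells, where the upper limit of the exact interval was 0.959%, 0.752% and 1.02%. No cluster consisted mainly of members, and none is given a cell type name.

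Because the members sit in some clusters and not in others, part of each difference could be read between clusters, and the members were also set against the other cells of their own cluster. THBS2 was over 2-fold higher in the members of clusters 1, 2 and 5, with ratios of 2.14, 2.37 and 2.26, as were CA4 (7.04, 2.43 and 2.84) and CXCL2 (4.85, 2.04 and 2.61). CCL2 was over 2-fold apart in clusters 1 and 2 (3.23 and 2.27) and not in cluster 5 (1.82). DCN (1.53, 1.42 and 1.19) and EPDR1 (1.44, 1.44 and 1.68) were closer to level than in all blood stroma. ANKRD1 had a ratio of 0.05 in cluster 2 and 0.92 in cluster 5, and THBS1 had 0.519, 0.471 and 0.499 in clusters 1, 2 and 5. ASPN, although in the score, was lower in the members of cluster 1 than in the other cells there (0.702), while SST (13.8), IL6 (13.6) and SFRP4 (2.37) were higher there.

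The members differed among themselves by which of the 4 genes was high, and were split at each gene's median level into 151 upper and 152 lower cells. Because cells were chosen by the sum of 4 levels, a cell low in a gene must be high in another, which shapes these splits and allows no reading of exclusion; the values are a description. Between the splits by SST, IL6 had 183 CPM in the SST-upper cells and 597 CPM in the SST-lower cells (0.307), and CXCL2 had 122 CPM and 340 CPM (0.359). Besides SST itself no gene was 2-fold higher in the SST-upper cells (1 of 2910 genes, 0.0344%), and 3 genes, 0.103%, were lower. CXCL8 (0.748) and CXCL5 (0.866) were not called, and SFRP2 had 497 CPM in the SST-upper cells and 316 CPM in the SST-lower cells (1.57).

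Split by IL6, CXCL2 had 348 CPM in the IL6-upper members and 120 CPM in the IL6-lower members (2.90), and CCL2 had 556 CPM and 222 CPM (2.51). These were, with IL6 and PRG4, the only genes of 2912 called higher (0.137%), and the call of PRG4 was lost without a single cell. CXCL8 (1.96), GRO1 (1.86) and CXCL5 (1.72) were next to the limit. PTN, the heparin-binding growth factor pleiotrophin, was lower, with 231 CPM in the IL6-upper members and 490 CPM in the IL6-lower members (0.472; 1 of 2912 genes, 0.0343%). When IL6 was left out of the score, the ratios over all blood stroma were 2.19 for CXCL2, 1.84 for CXCL5, 1.68 for CCL2 and 1.46 for GRO1, while THBS2 (3.52) and EPDR1 (2.15) were as before.

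Split by SFRP4, 11 of 2932 genes, or 0.375%, were higher in the SFRP4-upper members and 1, or 0.0341%, was lower. CLU, clusterin, a secreted chaperone, had 60.6 CPM in the SFRP4-upper members and 18.0 CPM in the SFRP4-lower members (3.37). MFAP5, a microfibril protein, had 82.4 CPM and 25.9 CPM in the same order (3.19), and ENSBTAG00000052665 had 180 CPM and 53.4 CPM (3.37). SFRP2 ran the other way, with 256 CPM in the SFRP4-upper members and 540 CPM in the SFRP4-lower members (0.474).

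Split by ASPN, whose lower cells all had 0 ASPN UMIs along with 17 of the upper cells, 7 of 2948 genes, or 0.237%, were higher and 2, or 0.0678%, were lower. TNC, tenascin-C, a matrix protein of tendon and wounds, had 669 CPM in the ASPN-upper members and 256 CPM in the ASPN-lower members (2.61). SFRP2 had 538 CPM in the ASPN-upper members and 252 CPM in the ASPN-lower members (2.14), and SERPINF1, which encodes PEDF, had 91.9 CPM and 43.7 CPM (2.10). CA4 (81.1 CPM and 199 CPM, 0.407) and SPP1, osteopontin (51.6 CPM and 135 CPM, 0.382), were lower in the ASPN-upper members. IGFBP5, an insulin-like growth factor binding protein, was higher in the ASPN-upper members (2.07) and in the SFRP4-upper members (2.16).

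**Figure D4:**
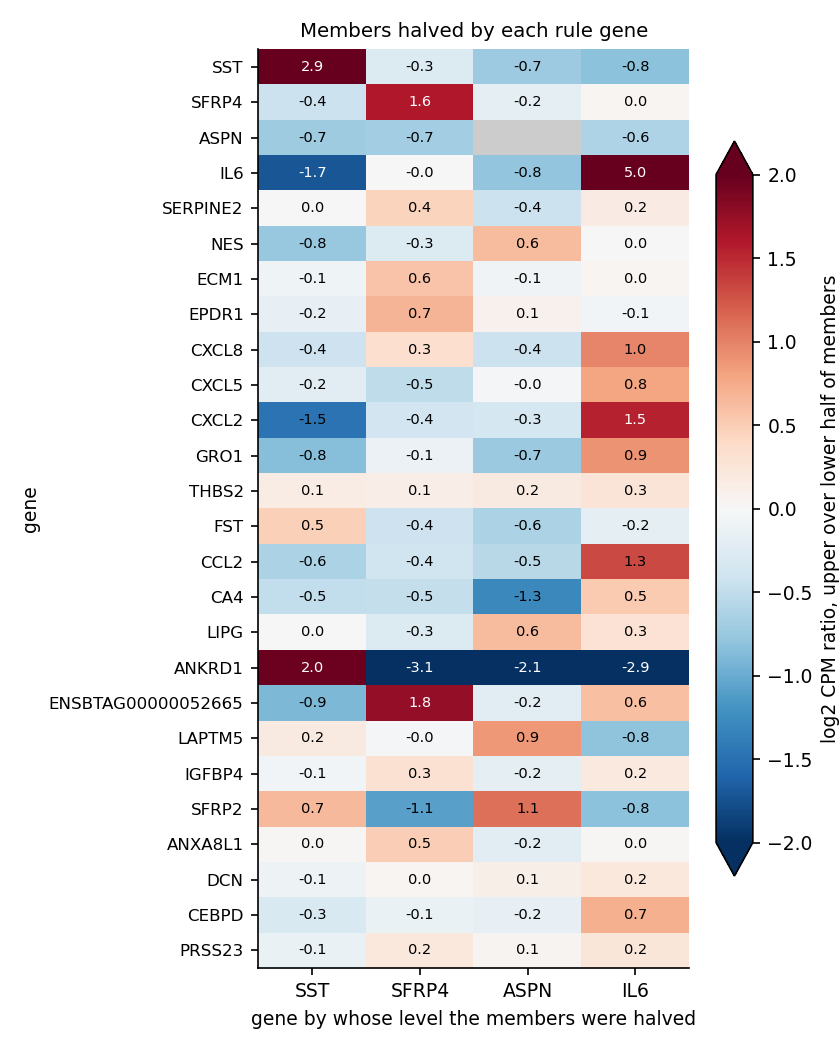
log2 CPM ratio of the upper 151 over the lower 152 members when split by SST, SFRP4, ASPN or IL6 (columns), for the 4 genes and their companions (rows); the grey cell marks ASPN, whose lower members are at 0, and colours end at -2 and 2. CXCL2 and CCL2 are red under IL6, and SFRP2 is blue under SFRP4 and red under ASPN.

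PRG4, lubricin, a lubricating proteoglycan of joint surfaces, needs care. It had 49.1 CPM in the members and 4.14 CPM in the others, just under the 50 CPM limit, and was seen in 41 of 303 members. A single member carried 169 of the 394 UMIs, 42.9% of them. Without this cell its calls were lost in the splits by IL6, SFRP4 and SST. Under IL6 the ratio was 6.81 with the cell and 3.50 without it, when the IL6-upper members had 43.9 CPM, under the 50 CPM limit. Under SFRP4 it was 4.13 with the cell and 1.92 without, and under SST 0.287 and 0.625.

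The same rule was applied to the other libraries, which the choice of blood members did not use. Each had its own UMI threshold, giving 830 of 8297 cells in bone marrow and 609 of 6088 in adipose tissue. SST hardly entered there, with 0.49 CPM in the top 10% and 0.201 CPM in the other stromal cells of marrow, and 16.6 CPM and 0.686 CPM in adipose tissue. The top marrow cells were IL6-high, at 1535 CPM, against 182 CPM in the other marrow cells. The top adipose cells were ASPN- and SFRP4-high, with 273 CPM and 159 CPM, against 17.4 CPM and 11.4 CPM in the other adipose cells. SST was higher in the blood library as a whole, whose other stromal cells had 54.0 CPM and whose free RNA had 127 CPM. The libraries differ in depth and have no replicate, and this difference was not tested.

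In marrow, 3 of 2947 genes, or 0.102%, were 2-fold higher in the top 10%, and 0, or 0.0%, lower, whereas 13 genes, or 0.441%, were 1.5-fold higher and 3, or 0.102%, lower. In adipose tissue 13 of 3068 genes, or 0.424%, were higher and 1, or 0.0326%, was lower. These counts include genes of the rule, which chose the cells: IL6 in marrow, and SFRP4 and ASPN in adipose tissue. Without the rule genes, 2 genes were 2-fold higher in marrow and 11 in adipose tissue. Of the 11 genes called higher in the blood members outside the rule, only 5 reached 50 CPM in marrow and 4 in adipose tissue, so the others could not be called there. Among those, CCL2 was called in marrow, at 151 CPM in the top 10% and 74.99 CPM in the others (2.02), and ENSBTAG00000052665 in adipose tissue, at 59.6 CPM and 10.0 CPM (5.94). Across genes reaching the level in both libraries, the log2 ratios of blood correlated with those of marrow (Spearman's rho 0.65 over 2683 genes) and of adipose tissue (0.73 over 2769 genes). Genes are not independent replicates, and the ratios share the 4-gene rule. CXCL2 had ratios of 3.70 in marrow and 4.18 in adipose tissue at levels under 50 CPM. THBS2 had a ratio of 1.45 in marrow, with 114 CPM in the top 10% and 78.8 CPM in the others, and 3.60 in adipose tissue, with 46.2 CPM and 12.8 CPM. CA4 had ratios of 1.26 in marrow and 0.80 in adipose tissue, also under 50 CPM.

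**Figure D5:**
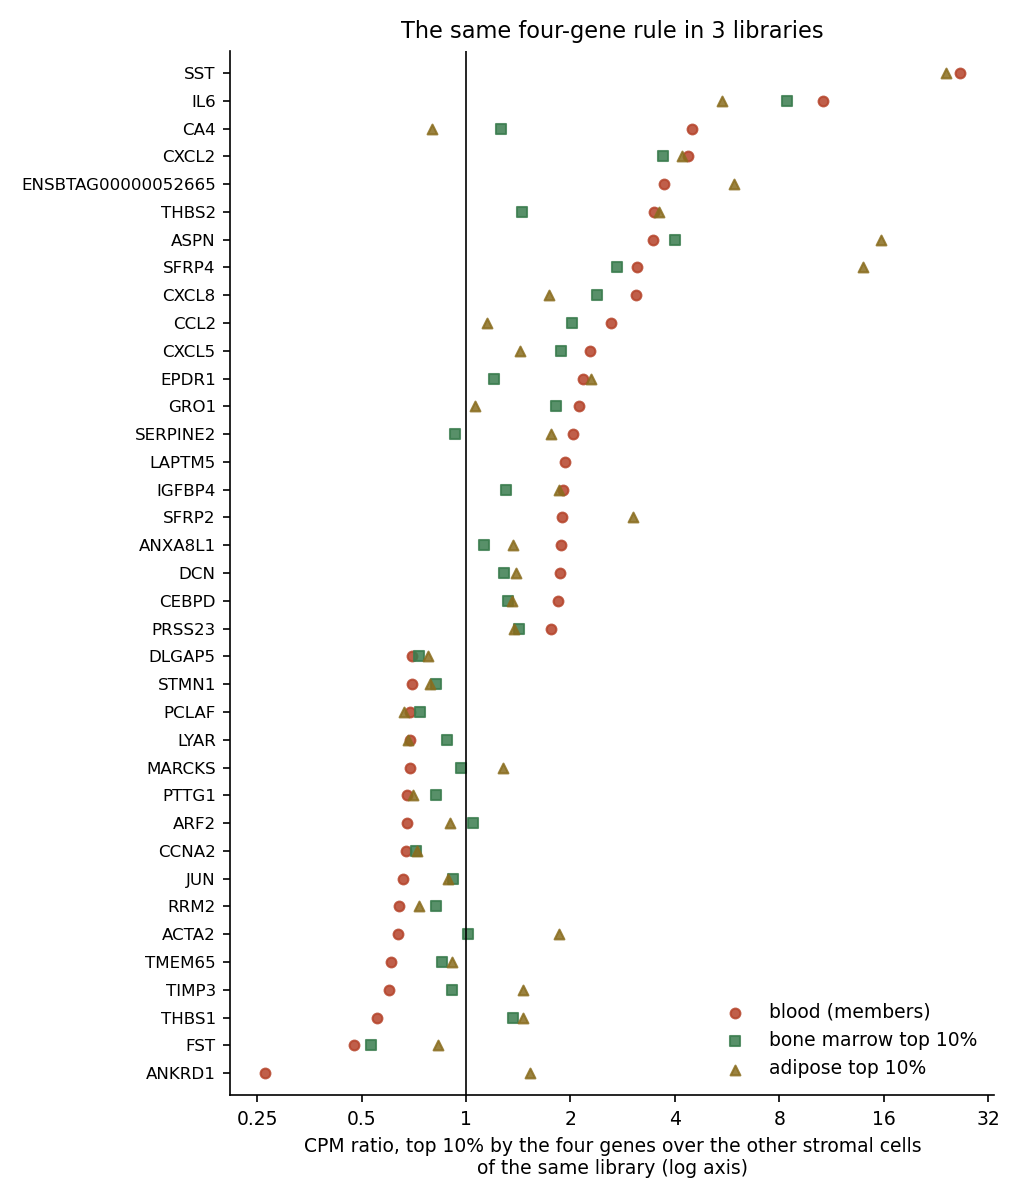
CPM ratio of the top 10% by the 4 genes over the other stromal cells of the same library, on a log axis, for blood (circles), bone marrow (squares) and adipose tissue (triangles); genes under 10 CPM on both sides in a library are left out there. CXCL2 lies above 3-fold in each library, CA4 in blood only (4.49), and THBS1 lies below 1 in blood (0.553) and above 1 in marrow (1.37) and adipose tissue (1.45).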

How the data were processed

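The deposited files hold raw UMI counts for each barcode and gene. The authors made them with Cell Ranger (6.1.1 per the submitters' processing notes, 4 per the file headers), and those notes name the build ARS-UCD1.2. They list 21861 genes and hold 98016815 UMIs for blood, 106322567 for marrow and 99356868 for adipose tissue. Cells were barcodes whose UMI total reached a divided percentile (percentile 99 among the 3000 deepest barcodes, divisor 10). Cells under 500 genes or over 20% mitochondrial UMIs numbered 0. Blood shared 10 barcodes with marrow and 4 with adipose tissue. Scrublet (scanpy 1.11.5, expected rate 6%) called 0 of 3192 blood cells. Doublets were therefore not removed, and their share stays unknown. Median doublet scores were 0.062 in members and 0.0686 in others. The members, lists and rules were chosen with earlier results of these data known.

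UMIs were summed over members and over other cells, and CPM ratios carry exact conditional binomial intervals; shares carry Clopper-Pearson intervals. With 1 library there is no p-value. For a count of 0 the limit is 3 counts. Lists (45, with 750 of 779 entries found) count as measured a gene whose CPM in both groups add up to 10 or more. Named genes are the 4 rule genes, 15 genes per direction by size of ratio (with a symbol, 100 CPM or more on the higher side, not mitochondrial or ribosomal), list members called at 2-fold, 9 surface genes, cluster leaders, and identifiers among the 3 largest ratios; other names were chosen after their values were seen. Clusters used scanpy (2000 variable genes, 30 components, 15 neighbours, resolution 0.5). Gene order came from a RefSeq table of ARS-UCD2.0, used for neighbours only. The calculations were tested on simulated data.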

Additional observations from a re-analysis of the deposited data

Results flagged for a closer look

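Some genes that differ in the blood members lay on the other side of 1 when the same rule was applied to another library, by at least 1.2-fold on each side and with counting intervals that leave out 1. The difference between libraries was not tested. THBS1, at 0.553 in blood, had a ratio of 1.37 in bone marrow and 1.45 in adipose tissue. ACTA2, at 0.637 in blood, had 1.85 in adipose tissue. TIMP3, at 0.601 in blood, had 1.46 in adipose tissue, and MARCKS, an actin-binding kinase substrate at 0.688 in blood, had 1.28 there. ANKRD1, at 0.263 in blood, had 1.53 in adipose tissue, with 57.0 CPM in the top 10% and 37.2 CPM in the other adipose cells.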

How the results depend on the processing

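No paired analysis was possible because 1 library holds both groups of cells. The count of 15 genes higher and 4 lower, of 2975, became 29 and 16 of 7124 with a minimum of 10 CPM, and 62 and 14 of 2975 at 1.5-fold. With no CPM minimum, 14091 genes with at least 3 UMIs over both groups were compared. Of these 629 were higher and 1500 lower, a setting that admits genes with very few counts. The number lower was 7 with the score without SST, 1 without SFRP4 and 8 in low-cycling cells. Within clusters, an alternative chosen after seeing the data, 2 genes were lower in cluster 1, and 5 were higher and 1 lower in cluster 5; the ratio of ASPN reversed to 0.702 in cluster 1. Under the other alternatives run, between 11 and 19 genes were higher. When a random part of each cell's UMIs chose the members and the remainder measured them, 277 of 303 members were shared and SST had a ratio of 23.8; with cells thinned to 7000 UMIs for the choice, 260 were shared. CA4, CXCL2 and THBS2 were at least 2-fold apart in all 20 settings for which ratios were computed, whereas LIPG was in 8, SERPINE2 in 13 and GRO1 in 14. SST and IL6 were also apart in all 20, but nearly every setting chose the cells by these genes, so this was largely fixed in advance. Scaling by TMM (edgeR 4.0.16) left 3 genes lower. With 1 cow and 1 culture, no value here says how another culture would differ, and low genes such as S100A8 rest on few cells.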

Other observations

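Other gene groups also differed between the members and the other blood stromal cells. Of 12 measured genes of cholesterol synthesis and uptake, 0 had a ratio above 1, where 3389 of 8387 measured genes did. Their median log2 ratio was -0.49, against -0.05 over all measured genes. Of the 12, 0 reached 50 CPM, so none could be called. HMGCS1, which makes the precursor of mevalonate, had 21.1 CPM in the members and 47.6 CPM in the others (0.443), and IDI1, an isomerase of the pathway, had 8.73 CPM and 18.5 CPM (0.471). Growth factors went both ways. ANGPTL4, an inhibitor of lipoprotein lipase, had 78.2 CPM in the members and 43.7 CPM in the others (1.79) and passed 1.5-fold. BDNF, a neurotrophin, had 19.2 CPM in the members and 46.3 CPM in the others (0.414), and FGF5 had 13.7 CPM and 40.8 CPM (0.336), both under the 50 CPM limit.

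The calgranulins S100A9 and S100A12 each had 42 UMIs in the members, at 5.24 CPM, against 0.611 and 0.897 CPM in the others. In each case 16 members carried them and a single member held 28.6% of the UMIs. COL18A1, a basement membrane collagen, had 10.8 CPM in the members and 2.69 CPM in the others (4.03).

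The transcription factor CEBPD, induced by inflammatory signals, had 399 CPM in the members and 216 CPM in the others (1.85), and IGFBP4, which binds insulin-like growth factors, had 532 CPM and 280 CPM (1.90). Across the score deciles IGFBP4 was higher at each of 9 steps, with 92.3 CPM in decile 1 and 470 CPM in decile 9.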
